A study of Mus musculus with 24 samples.

Results

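The comparison of M1 with M2 polarization was made in untreated macrophages of DRD5 knockout (KO) mice, taking the 3 libraries labelled M1 and the 3 labelled M2 among the 24 libraries of the series. The members were found from the labels for genotype, polarization and absence of dopamine (DA), and the same contrast was made in the 6 untreated wild-type (wt) libraries to show which polarization genes differed by genotype. Bone marrow-derived macrophages (BMDM) came from tibia and femur marrow of C57BL/6 mice aged 10 weeks and were grown in medium conditioned by L929 cells; the study's methods describe the knockout as made with CRISPR-Cas9 and the mice as male. KO M1 and wt M1 cells received LPS at 100 ng/ml with IFN-γ at 50 ng/ml for 12 h. KO M2 and wt M2 cells received IL-4 and IL-13 at 10 ng/ml each for 12 h, and none of these 12 libraries had DA. The labels give the tissue as bone, while the growth label speaks of colons. RNA was sequenced in bulk, and expression was given as FPKM, fragments scaled to transcript length and to the mapped fragments of the library.

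Macrophages take on different programmes depending on the signal they meet. LPS acts through the Toll-like receptor TLR4 and NF-kB, and IFN-γ through its own receptor, which together give the classical or M1 state with inflammatory cytokines, chemokines, nitric oxide and antigen presentation. IL-4 and IL-13 act through the IL-4 receptor and STAT6, which gives the alternative or M2 state with lectin receptors, chitinase-like proteins and lipid metabolism. DRD5 is a dopamine receptor that couples to the G protein Gs and raises cAMP.

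The targeted gene itself could not check the genotype. Drd5 (gene 13492, chr5:38319509-38322523, GRCm38.p6 in RefSeq) is listed only in the M2 files, at 0, 0 and 0 FPKM in the 3 KO M2 libraries and 0, 0.06 and 0 in the 3 wt M2 libraries. Wild-type M2 macrophages thus had next to no Drd5 RNA in these files, and the labels for genotype rest on no measured value here. Of the other receptors, Drd1 was at 0, 0 and 0.01 FPKM in KO M1 and a mean of 0.18 in KO M2, and Drd4 at 0.02 in KO M2. Drd2 is listed only in the M2 files and Drd3 only in the M1 files, both at 0 in every untreated library.

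The M1 and M2 libraries come as different sets of files. Those of M1 hold 18063 genes and those of M2 17786, with 17109 in both, 954 in the M1 files alone and 677 in the M2 files alone. Stimulus and file set therefore cannot be told apart in the comparison of M1 with M2, whereas the genotypes were compared within a set. Titles differ in style as well, the knockout being written D5 in the KO M1 libraries and KO in the KO M2 libraries, and 2 of the wt M1 libraries being written wt and the other WT, and no date or lane is given. FPKM summed to 484350 to 494459 in the KO M1 libraries and to 498900 to 503799 in the KO M2 libraries. Between 9818 and 9843 genes reached 1 FPKM in a KO M1 library, against 10349 to 10366 in a KO M2 library, so fewer genes were detected in M1. The depth of the libraries is unknown because the files give no counts. Nothing in the labels says whether replicates were separate mice or separate cultures, and p-values therefore measure the spread between these libraries, which may be technical.

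Polarization separated the libraries far more than genotype did. Across the genes tested, log2(FPKM + 1) correlated at 0.998 between any 2 KO M1 libraries and at 0.998 between any 2 KO M2 libraries. Between a KO M1 and a KO M2 library the correlation was 0.768 to 0.771. Between KO and wt it was 0.996 to 0.998 in M1 and 0.993 to 0.994 in M2. Genes are not independent replicates, and these values are descriptive only. No library stood apart from the others of its group.

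Marker genes of the polarization states separated the 2 KO groups. Nos2, the inducible nitric oxide synthase of M1 cells, was at 2007, 1945 and 1937 FPKM in KO M1 and at 0.21, 0.18 and 0.29 in KO M2. Il12b, the p40 subunit of IL-12, was at 17.9, 18.7 and 19.1 in KO M1 and listed at 0 in all 3 KO M2 libraries. Both were high in every untreated M1 library and near or at 0 in every untreated M2 library. Mrc1, the mannose receptor used as an M2 marker, was at 12.2, 10.4 and 11.5 in KO M1 and at 251, 245 and 248 in KO M2. Chil3, the chitinase-like protein Ym1, was at 0.59, 0.91 and 0.84 in KO M1 and at 41.3, 43.7 and 42.1 in KO M2. These 2 M2 markers were higher in each M2 library than in any M1 library. The fitted difference of M1 from M2 on the log2(FPKM + 1) scale was 10.65 for Nos2 (limma adjusted p = 7.4e-24), -4.33 for Mrc1 (6.2e-19) and -4.61 for Chil3 (1.1e-17).

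**Figure D1:**
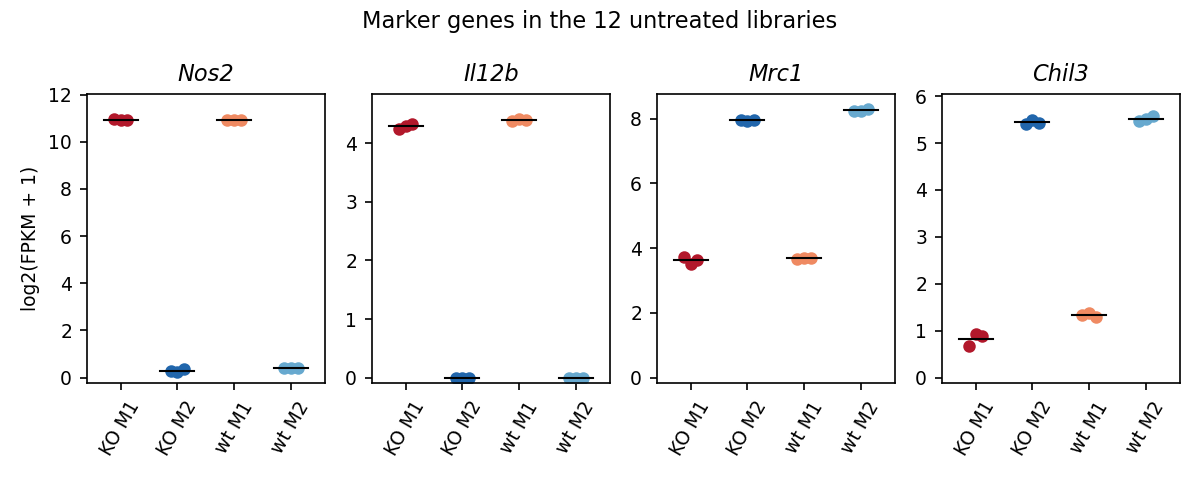
Expression of 4 marker genes as log2(FPKM + 1) in the 12 untreated libraries, 3 a group; points are libraries and lines group means. Nos2 and Il12b lie higher in M1 and Mrc1 and Chil3 higher in M2, in KO and in wt alike.

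None of the 4 markers passed the threshold for a difference in change between genotypes, while KO against wt passed for Chil3 within M1 and for Mrc1 within M2. For Chil3 the KO change was -4.61 and the wt change -4.18, a difference of -0.43 (adjusted p = 0.0034); within M1, Chil3 was at 1.53, 1.59 and 1.45 in wt, each above the KO values (-0.51, adjusted p = 4.0e-04). For Mrc1 the wt M2 libraries were at 303, 299 and 315, each above the KO M2 values (-0.30, adjusted p = 1.8e-04), and the difference in change was 0.25 (adjusted p = 0.015). For Nos2 the difference was 0.13.

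Of 17109 genes in both sets, 10682 reached 1 FPKM in 3 or more untreated KO libraries and were tested; 6427 did not. The threshold required a limma adjusted p below 0.001 together with 1.2-fold or more on the log2(FPKM + 1) scale, which understates changes of genes at low FPKM. In KO, 2532 genes (23.7% of those tested) were higher in M1 and 5745 (53.8%) higher in M2. In wt, 2435 (22.8%) were higher in M1 and 5851 (54.8%) in M2. The median of all tested genes lay at -0.37 in KO and -0.39 in wt, more than the 1.2-fold limit, so the excess of M2 calls depended on the scale. After median-of-ratios scaling, 3954 (37%) were higher in M1 and 3932 (36.8%) in M2 in KO, and 3916 (36.7%) and 3926 (36.8%) in wt. That scaling centres the median of the tested genes, whereas quantile scaling left a smaller excess in M2. Under quantile scaling, 3484 were higher in M1 and 4382 in M2 in KO, and 3512 and 4302 in wt. With median-of-ratios scaling 1813 calls higher in M2 were lost and 1422 calls higher in M1 were added. No gene past the threshold turned to the other direction, but this scaling moves all genes the same way by less than such a turn needs. The absence of turns therefore says nothing about how stable the directions are. Changes of named genes are given on the unscaled values and should be read against the median of -0.37.

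At a limit of 4-fold, chosen after seeing the data, 508 genes (4.76%) were higher in M1 and 533 (4.99%) higher in M2 in KO, and 471 (4.41%) and 553 (5.18%) in wt. After median-of-ratios scaling the counts in KO were 696 and 324, so the balance at 4-fold also depended on the scale. All 508 and all 533 were past the lower 1.2-fold threshold in the same direction in the wt libraries, which share none with KO but entered the same fit. In the 6 DA-treated KO libraries, fitted alone, 2414 genes (22.6%) were higher in M1 and 5741 (53.7%) in M2, and all 508 and 533 genes again passed in the same direction. The untreated and the DA-treated KO libraries therefore showed the same direction for each gene of the strong set. Both checks used a limit far below the 4-fold that chose the genes and share the split of M1 and M2 into sets of files. Full agreement was therefore likely beforehand and is a description only.

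The largest rise in M1 was that of Acod1, the enzyme that makes itaconate, at 3736, 3754 and 3819 FPKM in KO M1 and 0.79, 0.68 and 0.95 in KO M2. Saa3, an acute-phase protein of the serum amyloid A family, was at 7609, 8594 and 8833 in KO M1 and 3.85, 4.79 and 3.99 in KO M2. Cxcl10 and Cxcl9 encode ligands of CXCR3, a receptor on T cells. Cxcl10 was at 1773, 1802 and 1741 in KO M1 and 0.28, 0.37 and 0.19 in KO M2, and Cxcl9 at 960.3, 997 and 1008 in KO M1 and 0.11, 0.21 and 0.14 in KO M2. All 4 were above 900 FPKM in each untreated M1 library and below 5 in each untreated M2 library. Ccl5, a chemokine for T cells and monocytes, was at 5494, 6006 and 5991 in KO M1 and 13.6, 16.3 and 15.3 in KO M2. Interferon-induced genes filled most other places. Gbp2, a guanylate-binding protein, was at 1690, 1683 and 1729 in KO M1 and 4.18, 4.06 and 4.74 in KO M2. Rsad2, the antiviral enzyme viperin, was at 1018, 943 and 978 in KO M1 and 2.42, 2.34 and 2.49 in KO M2. Their M1 and M2 values did not come near each other. Gbp4, Iigp1, Oasl1 and Ifi205 had means of 682, 582, 616 and 428 FPKM in KO M1 and all lay below 1 in each KO M2 library. The fitted changes of these 12 genes, Nos2 included, ran from 8.05 (Ifi205) to 11.03 (Acod1), and in wt from 7.48 (Rsad2) to 11.12 (Saa3).

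Promoters of 4 interferon-induced genes and of the M2 gene Retnla are printed from RefSeq (GRCm38.p6), 250 bases before to 50 after the start, to show letters shared by genes that moved together. The motif GAAA, any 2 bases, GAAA is the core of the interferon-stimulated response element; GGGA, any 2 bases, TTCC is an NF-kB type motif; TTC, any 4 bases, GAA has the STAT6 spacing. Both strands were searched, and capitals mark each match, with overlapping matches run together. Cxcl10 (chr5:92348840-92349139, minus strand) and Gbp2 (chr3:142620413-142620712, plus strand) hold the interferon core and the NF-kB type motif. Isg15 (chr4:156200769-156201068, minus strand) holds 3 overlapping matches of the interferon core and Rsad2 (chr12:26456403-26456702, minus strand) 1. Retnla (chr16:48842359-48842658, plus strand) holds 1 match with the STAT6 spacing.
Cxcl10: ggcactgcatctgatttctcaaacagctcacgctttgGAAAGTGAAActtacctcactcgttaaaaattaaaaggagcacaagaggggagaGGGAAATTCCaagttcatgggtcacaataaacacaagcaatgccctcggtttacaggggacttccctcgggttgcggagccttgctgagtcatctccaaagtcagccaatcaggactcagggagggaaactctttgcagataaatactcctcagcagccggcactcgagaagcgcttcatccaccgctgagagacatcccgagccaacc
Gbp2: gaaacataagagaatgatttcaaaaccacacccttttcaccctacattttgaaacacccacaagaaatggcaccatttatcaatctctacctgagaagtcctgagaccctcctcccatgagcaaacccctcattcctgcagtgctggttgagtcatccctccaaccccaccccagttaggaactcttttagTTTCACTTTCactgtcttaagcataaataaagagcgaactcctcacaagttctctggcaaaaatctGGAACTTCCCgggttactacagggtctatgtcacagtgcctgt
Isg15: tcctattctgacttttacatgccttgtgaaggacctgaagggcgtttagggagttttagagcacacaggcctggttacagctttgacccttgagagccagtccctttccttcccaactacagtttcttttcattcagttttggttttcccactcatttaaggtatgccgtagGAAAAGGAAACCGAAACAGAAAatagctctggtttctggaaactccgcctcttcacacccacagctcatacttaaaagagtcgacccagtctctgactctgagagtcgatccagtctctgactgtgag
Rsad2: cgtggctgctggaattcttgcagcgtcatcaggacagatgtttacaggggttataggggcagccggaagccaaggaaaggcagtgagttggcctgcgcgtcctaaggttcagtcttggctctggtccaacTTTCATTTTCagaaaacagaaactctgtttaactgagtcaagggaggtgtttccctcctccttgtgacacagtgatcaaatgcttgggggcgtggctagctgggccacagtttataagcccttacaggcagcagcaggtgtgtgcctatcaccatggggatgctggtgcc
Retnla: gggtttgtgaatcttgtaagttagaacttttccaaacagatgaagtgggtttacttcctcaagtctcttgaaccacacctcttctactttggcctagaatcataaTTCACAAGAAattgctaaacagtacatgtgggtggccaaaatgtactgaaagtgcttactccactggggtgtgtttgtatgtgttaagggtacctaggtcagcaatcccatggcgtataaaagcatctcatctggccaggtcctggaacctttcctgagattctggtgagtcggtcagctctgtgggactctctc

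Of the tested genes, 8647 (80.9%) had a promoter in the RefSeq table. The interferon core stood in 3.44% of all 32851 promoters, in 3.43% of the 11041 of tested genes, in 15.9% of the 502 promoters of genes at least 4-fold higher in M1 and in 2.62% of the 573 of genes at least 4-fold higher in M2. The STAT6 spacing stood in 6.95%, 5.6%, 7.37% and 6.81% of these. The NF-kB type motif stood in 1.47%, 1.52%, 2.79% and 2.27%. These shares describe letters in the window and were not tested.

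Retnla, the secreted protein FIZZ1 of alternatively activated macrophages, led the genes higher in M2: it was listed at 0 in all 3 KO M1 libraries and at 91.8, 93.9 and 100.0 FPKM in KO M2. Atp6v0d2, a subunit of the lysosomal proton pump, was at 8.32, 7.90 and 8.63 in KO M1 and 607, 589 and 601 in KO M2. Ptgs1, the constitutive cyclooxygenase, was at 0.61, 0.60 and 0.45 in KO M1 and 83.3, 83.4 and 81.9 in KO M2. For each of these the M2 libraries were far above the M1 libraries, with no overlap. Apoe, the lipid carrier apolipoprotein E, was the most abundant of the group at 183, 194 and 187 in KO M1 and 6623, 6957 and 6824 in KO M2. Pparg, the nuclear receptor of fatty acid genes, was at 1.97, 1.99 and 1.77 in KO M1 and 89.5, 92.6 and 89.3 in KO M2, and Egr2, a transcription factor induced by IL-4, at 0.83, 0.91 and 0.91 in KO M1 and 61.8, 56.9 and 56.7 in KO M2. The lipid hydrolases Mgll and Daglb both handle monoacylglycerol or its precursor. Mgll was at 0.63, 0.63 and 0.45 in KO M1 and 72.0, 70.7 and 70.7 in KO M2, and Daglb at 3.02, 3.51 and 2.79 in KO M1 and 156, 163 and 163 in KO M2. Both were low in every M1 library. Rasgrp3, Rab3il1, Fcrls and Matk completed the 12, with KO M2 means of 45.9, 274, 173 and 36.9 FPKM against 0.04, 5.81, 3.83 and 0.29 in KO M1. Leaving out Retnla, the fitted changes ran from -6.01 (Atp6v0d2) to -4.89 (Matk).

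Gene lists describe the rest of the contrast, to be read beside the 23.7% of all tested genes higher in M1 and 53.8% higher in M2, or 37% and 36.8% after scaling. Inflammatory cytokines were higher in M1: of 15 tested members of a list of 20, 14 passed in that direction and 1, Csf1, in the other, as they did after scaling. Csf1, the macrophage growth factor, was named after its values were seen, at 5.86 ± 0.30 FPKM (mean ± SD, n = 3) in KO M1 and 21.4 ± 0.62 in KO M2. The median change of the list was 3.39 in KO and 3.42 in wt, against -0.37 and -0.39 for all tested genes. Il1b was at 283, 308 and 311 in KO M1 and 1.56, 2.22 and 2.67 in KO M2, Il1a at 102 ± 2.6 and 0.88 ± 0.12. Il27, a subunit of a cytokine that acts on T cells, was at 53.2 ± 2.3 and 0.43 ± 0.055. Il1rn, which encodes the antagonist of the IL-1 receptor, was more abundant than either IL-1 gene at 1768 ± 7.0 and 11.2 ± 0.34. No cytokine of the list passed for a difference in change between genotypes. Ifnb1, Il12a, Il23a, Lif and Clcf1 were below the filter.

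Among 12 tested chemokines of LPS- and IFN-γ-treated macrophages, 11 were higher in M1 and none in M2, with a median change of 4.14. Cxcl1, named after its values were seen, did not pass, at 2.62 ± 0.63 in KO M1 and 3.94 ± 0.35 in KO M2. Cxcl2, a ligand for neutrophils, was at 83.9 ± 2.5 and 0.52 ± 0.12. The monocyte chemokine Ccl2 was at 1071 ± 38 in KO M1, 68.2 ± 1.9 in KO M2 and 88.4 ± 4.8 in wt M2, and its change was larger in KO by 0.40 (adjusted p = 1.6e-04), as was that of Ccl5 by 0.48 (7.5e-04). Ccl3 and Ccl4 went the other way. Ccl4 was at 65.8, 63.2 and 61.8 in KO M2 and 43.8, 42.5 and 48.5 in wt M2, so the change was 0.54 in KO and 1.13 in wt (difference -0.58, adjusted p = 2.6e-05). Ccl3 differed by -0.35 (5.6e-04). Every KO M2 value of Ccl4 was above every wt M2 value, while the M1 groups had means of 93.2 and 99.3.

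Chemokines used as marks of IL-4-treated macrophages were split. Of 5 tested, Ccl22 and Ccl8 were higher in M1, Ccl24 and Ccl6 higher in M2, and Ccl9 passed only after scaling, as higher in M1; the median change was 0.06. Ccl6 was at 93.9 ± 4.2 in KO M1 and 271 ± 4.4 in KO M2. Ccl24, a ligand for eosinophils, was at 1.27, 1.23 and 1.66 in KO M1 and 4.88, 5.28 and 6.17 in KO M2, and at 9.14, 11.0 and 9.16 in wt M2. Ccl8 was at 121, 117 and 104 in KO M1, 17.6, 15.4 and 17.5 in KO M2 and 32.1, 30.7 and 33.2 in wt M2. In both, KO M2 libraries were below every wt M2 library, and the KO change was more positive by 0.93 (9.8e-04) and 0.87 (1.2e-05). Ccl22, a ligand of CCR4, was at 5.16 ± 0.18 in KO M2 and 7.21 ± 0.63 in wt M2 with a difference in change of 0.49. Ccl17 was listed at 0 in all M1 libraries and below the filter.

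Chemokine receptors gave 5 genes higher in M1 and 2 in M2 among 7 tested (median 1.83). Ccr7, which guides cells to lymph nodes, had a mean of 38.9 in KO M1 and 0.01 in KO M2, Ccrl2 99.5 and 7.74. Cxcr4, the receptor of CXCL12, was higher in M2, at 14.3 ± 0.95 and 148 ± 0.82. Ccr1 differed by genotype, at 6.32 ± 0.20 in KO M2 and 4.77 ± 0.43 in wt M2 (difference in change -0.47, adjusted p = 3.4e-04).

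The IL-4 and IL-13 response list moved toward M2. Of 37 tested members of 45, 31 were higher in M2 (30 after scaling, Il4i1 being lost) and 6 higher in M1, with a median of -2.49. Among the 6, named after their values were seen, were Tgm2, Klf4, Slc7a2, Cish and Ch25h, so the list did not move as a unit. Ch25h, which makes 25-hydroxycholesterol, was at 122 ± 4.6 in KO M1 and 3.90 ± 0.39 in KO M2, and Tgm2, a transglutaminase, at 398 ± 10.1 and 75.8 ± 0.36. Fcrls, Atp6v0d2 and Ptgs1 were given above. The galactose-type lectin genes Mgl2 and Clec10a were almost confined to M2 and lower there in KO. Mgl2 was at 41.4, 43.4 and 40.2 in KO M2 and 66.5, 67.7 and 68.5 in wt M2, Clec10a at 37.4, 36.7 and 34.0 in KO M2 and 65.6, 66.7 and 69.5 in wt M2. Each KO M2 value lay below each wt M2 value, and the fall from M2 to M1 was smaller in KO by 0.96 (2.8e-06) and 0.86 (1.5e-05).

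A further 4 list members differed by genotype. Olfm1 was at 70.7 ± 0.33 in KO M2 and 120.2 ± 1.3 in wt M2 (difference 0.73). Cdh1, E-cadherin, was at 1.10 ± 0.051 and 2.18 ± 0.060 (0.58). Klf4, a transcription factor of M2 cells, was at 11.2, 11.4 and 10.9 in KO M1 and 7.81, 7.83 and 7.42 in KO M2, but at 10.6, 10.7 and 9.24 in wt M1 and 12.6, 12.4 and 12.6 in wt M2. It was higher in M1 in KO and higher in M2 in wt, with changes of 0.49 and -0.28 (difference 0.77, adjusted p = 5.7e-06). The direction in wt depended on the scale, being 0.13 and not past the threshold after median-of-ratios scaling, whereas the difference kept its call. For Ptgs1 the difference was 0.43 (3.9e-04). With Mgl2 and Clec10a, 6 of the 37 tested members differed, against 3.49% of all tested genes that differed in either direction. All 6 differences were positive, as were 290 (77.7%) of the 373 among all tested genes. Egr2, Pparg, Retnla and Mrc1 did not pass.

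The receptors for the 2 M2 cytokines were themselves higher in M1. Il4ra was at 254 ± 3.4 in KO M1 and 18.7 ± 0.89 in KO M2, Il13ra1 at 26.3 ± 0.67 and 2.35 ± 0.10. In this list of IL-4 receptor and STAT6 signalling, 11 of 16 were higher in M1 and 2 in M2, and 14 and 2 after scaling (median 1.25). Socs1 and Socs3 encode inhibitors of cytokine signalling, at 361 ± 18 and 373 ± 6.6 in KO M1 against 33.7 ± 0.41 and 2.43 ± 0.23 in KO M2. The change of Socs3 was larger in KO by 0.52 (4.1e-05), with 2.28, 2.69 and 2.31 in KO M2 and 3.67, 3.44 and 3.47 in wt M2. Il2rg, the shared cytokine receptor chain, differed by 0.32 (8.0e-04).

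IFN-γ receptor signalling gave 15 of 18 genes higher in M1 and 2 higher in M2, and 16 and 1 after scaling, where Ifngr2 was lost (median 2.05). Ifngr1, a chain of the receptor for IFN-γ, was higher in M2 with or without scaling, at 21.0 ± 0.21 in KO M1 and 71.8 ± 0.66 in KO M2; both were named after their values were seen. Stat2 was at 177 ± 3.2 in KO M1 and 12.4 ± 0.56 in KO M2, and Batf2 at 154 ± 3.5 and 2.88 ± 0.52. The 6 that differed between genotypes did so with a more positive change in KO, as did 77.7% of the 373 differing genes overall (3.49% of all tested), among them Irf7, Usp18, Stat2 (0.53), Socs3 and Irf9 (0.31).

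Interferon-induced GTPases, which act against intracellular pathogens, were all higher in M1: 17 of 17 tested, all by at least 4-fold, with a median of 5.79. Tgtp2 was at 419 ± 2.0 in KO M1 and 1.08 ± 0.085 in KO M2. Gbp2b was listed at 0 in every untreated M2 library. In 5 of the 17 the change was larger in KO, against 3.49% of all tested genes that differed in either direction: Tgtp2 (0.66), Ifi47 (0.58), Gbp2 (0.50), Irgm1 (0.42) and Gbp6 (0.42). In the DA-treated libraries the difference had the opposite sign and passed for Ifi47, Gbp2, Irgm1 and Gbp6, while that of Tgtp2 kept its sign at 0.21 and did not pass. For Gbp2 the KO M2 values of 4.18, 4.06 and 4.74 lay below the wt M2 values of 7.29, 7.48 and 7.10. Gbp and Tgtp genes are families of similar sequence, and how reads shared by several members were assigned is not given in the sources used here.

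**Figure D2:**
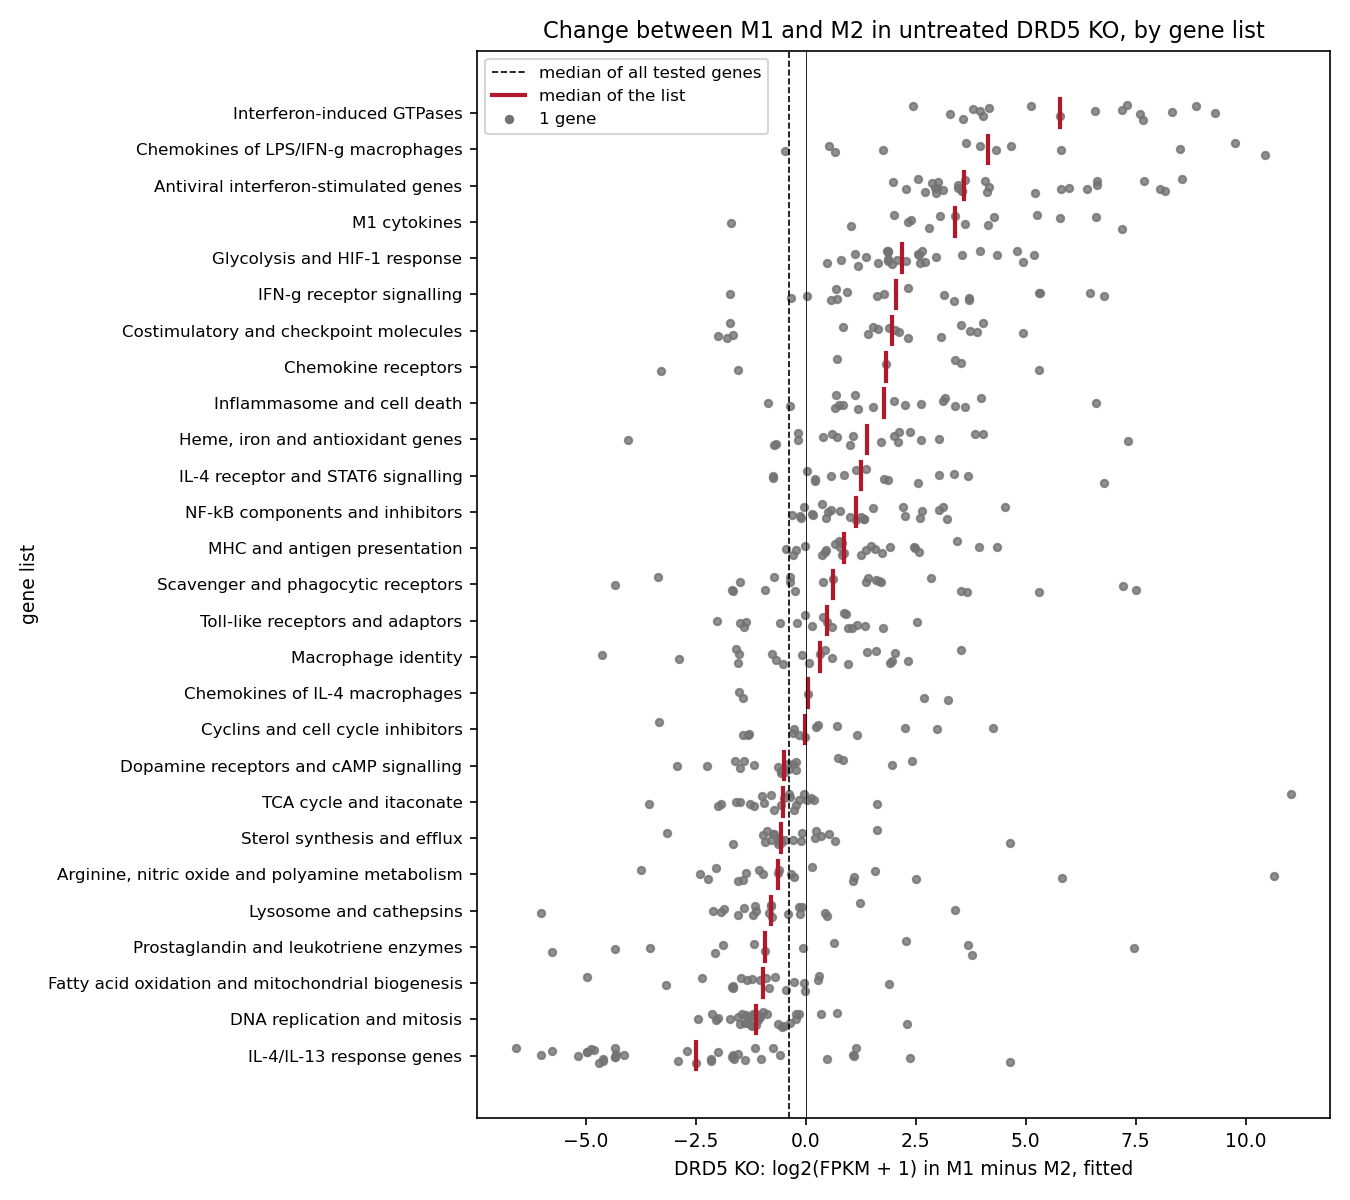
Fitted change between M1 and M2 in untreated DRD5 KO, log2(FPKM + 1) in M1 minus M2, for each tested gene of 27 lists. Points are genes, red lines list medians and the dashed line the median of all tested genes at -0.37; the interferon-induced GTPases lie highest (median 5.79) and the IL-4 and IL-13 response genes lowest (-2.49).

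The antiviral interferon-stimulated genes were likewise all higher in M1, 28 of 28 tested, 27 of them by at least 4-fold and with a median of 3.59. In 18 of the 28 the change was larger in KO than in wt, and in none smaller, against 3.49% of all tested genes that differed in either direction. Irf7, of the IFN-γ receptor list and the transcription factor that drives type I interferon genes, had the largest difference among the listed interferon genes and was at 1211, 1243 and 1190 in KO M1 and 1176, 1165 and 1142 in wt M1. In M2 it was at 12.9, 11.8 and 13.8 in KO and 31.6, 30.4 and 30.3 in wt. M2 libraries of KO all lay below those of wt, while the M1 libraries of KO lay slightly above those of wt. Its change was 6.46 in KO and 5.19 in wt, a difference of 1.27 (SE 0.06, adjusted p = 2.5e-08). Ifi44 was at 1.33, 1.17 and 1.28 in KO M2 and 3.84, 4.27 and 4.17 in wt M2 (difference 1.07, adjusted p = 1.1e-07). Usp18, also of the IFN-γ receptor list, the deconjugase of ISG15, was at 3.27, 3.93 and 3.36 in KO M2 and 8.78, 8.53 and 9.70 in wt M2 (1.04, 5.9e-07). For the 2 genes the KO M2 values were again all below the wt M2 values.

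Isg15, a ubiquitin-like modifier, was at 1015, 1025 and 1053 in KO M1 and 1025, 1020 and 1025 in wt M1, and at 9.67, 9.64 and 9.40 in KO M2 and 16.1, 16.9 and 17.7 in wt M2. Oas3, which makes the activator of RNase L, was at 8.94, 8.11 and 8.78 in KO M2 and 16.7, 17.6 and 16.7 in wt M2. Both were lower in each KO M2 library than in each wt M2 library, with differences in change of 0.77 (1.1e-07) and 1.02 (2.6e-08). Rsad2 followed with 4.83, 4.84 and 4.99 in wt M2 and a difference of 0.68, and its promoter and that of Isg15 are among those printed above. The remaining 14 were Ifit3 (0.98), Oasl2 (0.96), Rtp4 (0.90), Ifit2 (0.84), Ifit1 (0.79), Zbp1 (0.78), Oasl1 (0.76), Oas2 (0.73), Oas1g (0.66), Ddx58 (0.50), Oas1a (0.48), Dhx58 (0.48), Parp14 (0.38) and Ifi204 (0.37). Ifi205 (0.09), among the 4 largest changes of the list, did not pass. Fewer cells responding and less RNA per cell cannot be told apart in bulk RNA.

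MHC and antigen presentation genes were mostly higher in M1, 20 of 25 against 2 higher in M2, and 22 against none after scaling (median 0.87). The peptide transporter Tap1 was at 238 ± 2.5 in KO M1 and 10.8 ± 0.92 in KO M2, and Nlrc5, the activator of class I genes, at 39.6 ± 0.96 and 2.77 ± 0.16. The class I genes H2-Q7 and H2-Q4 were at 56.0 ± 0.64 and 236 ± 2.8 in KO M1 and 2.75 ± 0.61 and 38.6 ± 1.1 in KO M2. Of the class I genes only H2-K1 (0.31) passed for a difference in change between genotypes. H2-Ab1, a class II chain, was at 294, 323 and 309 in KO M1 and 179, 176 and 182 in KO M2, and at 300.1, 307 and 290.4 in wt M1 and 273, 275 and 277 in wt M2. KO M2 stood below the other 3 groups, and the change was 0.78 in KO against 0.12 in wt (difference 0.66, adjusted p = 6.4e-07). H2-Eb1 was at 73.5, 73.9 and 71.5 in KO M2 and 115, 109.5 and 112 in wt M2, with 72.5 and 74.5 in M1. Here wt M2 stood above the other 3 groups (0.57, 1.9e-06). Cd74, the invariant chain, was at 1348 ± 4.0 in KO M2 and 2001 ± 120.0 in wt M2 (0.65), H2-Aa at 249 ± 5.5 and 398 ± 7.3 (0.61). Ciita, the activator of class II genes, was at 5.83, 5.31 and 5.86 in KO M2 and 8.33, 8.91 and 9.14 in wt M2 (0.54, 7.9e-05), and H2-DMb1 differed by 0.39. The direction of the KO change was lost on scaling for Cd74 and arose on it for H2-Eb1, whereas the class II differences between genotypes kept their calls.

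**Figure D3:**
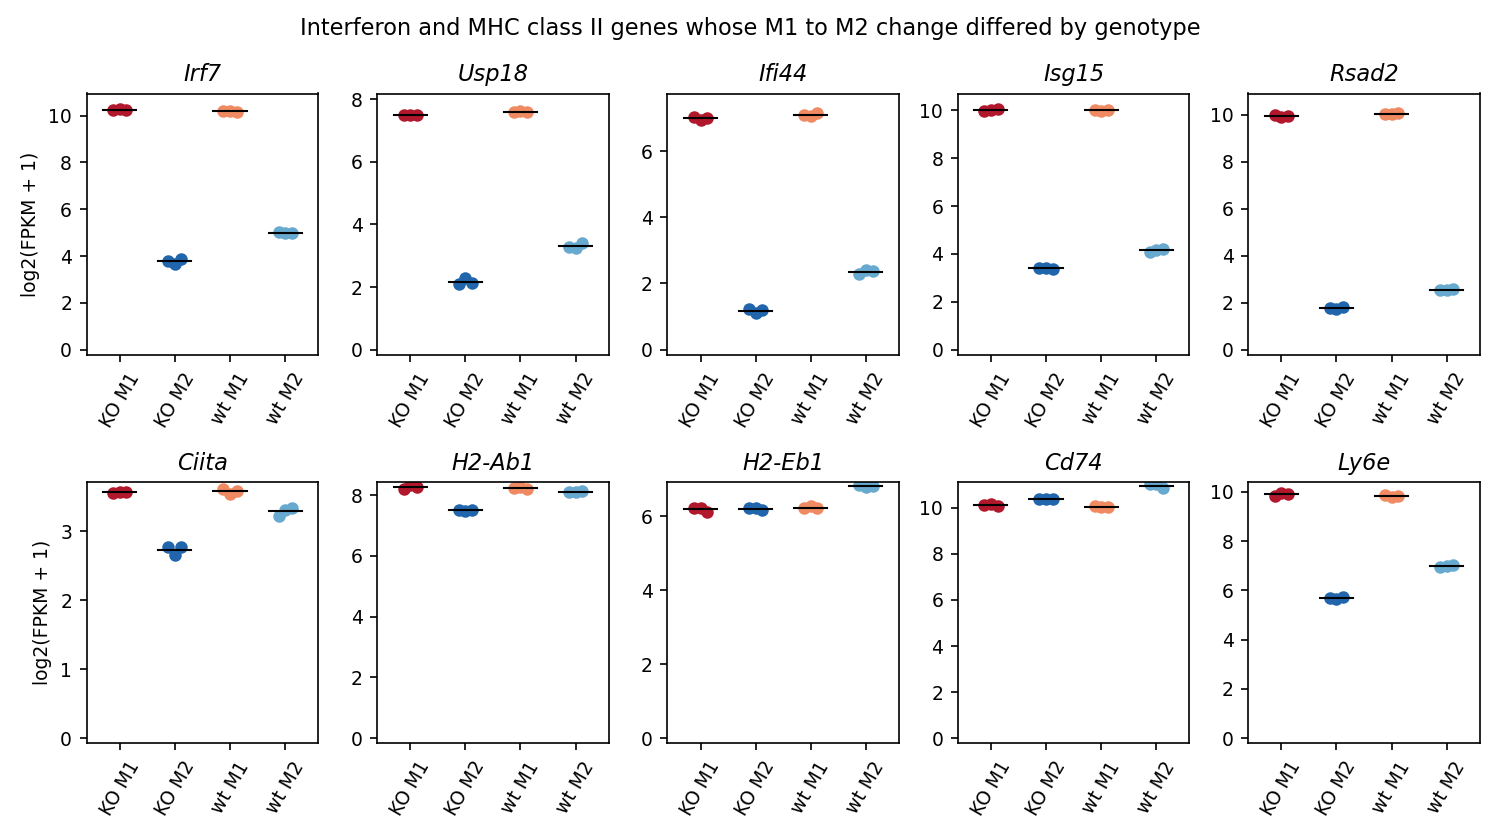
Expression of 10 interferon and MHC class II genes as log2(FPKM + 1) in the 12 untreated libraries, 3 a group; points are libraries and lines group means. In M2 the KO libraries lie below the wt libraries for each gene, while in M1 the genotypes lie close together.

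Costimulatory and checkpoint molecules gave 14 of 18 higher in M1 and 4 in M2 (median 1.95). Cd40 was at 155 ± 2.2 in KO M1 and 4.12 ± 0.24 in KO M2, and Cd274, which encodes PD-L1, at 674 ± 7.4 and 40.0 ± 0.81. The change of Cd274 was smaller in KO (-0.28), while those of Cd86 (0.33) and Lgals9 (0.50) were larger. Slamf1 was at 13.6 ± 0.34 in KO M1 and a mean of 0.09 in KO M2. NF-kB components and inhibitors gave 19 of 25 higher in M1 and 1 in M2, and 24 and none after scaling (median 1.15). The inhibitors Nfkbia, Nfkbie and Tnfaip3 were at 255 ± 1.0, 55.6 ± 1.9 and 81.2 ± 2.6 in KO M1 and at 30.2 ± 0.71, 5.10 ± 0.24 and 8.39 ± 0.25 in KO M2. Traf1 (0.60) and Tnip3 (0.42) changed more in KO.

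Toll-like receptors were divided, with 11 of 19 genes of the list higher in M1 and 5 in M2, and 13 and 4 after scaling (median 0.48). Tlr3, a receptor of double-stranded RNA, was at 16.9 ± 0.61 in KO M1 and 4.28 ± 0.030 in KO M2, and Tlr8 at 29.4 ± 1.4 and 121 ± 2.0. Irak3, an inhibitor of the pathway, was higher in M1 at 49.9 ± 0.50 and 7.85 ± 0.27, the kinase Irak1 higher in M2 at 13.9 ± 0.40 and 40.9 ± 0.58. Cd14, the LPS co-receptor, changed more in KO (0.34). Inflammasome and cell death genes gave 16 of 18 higher in M1 and 2 in M2, and 16 and 1 after scaling (median 1.77). Mlkl, the effector of necroptosis, was at 96.3 ± 2.1 and 6.98 ± 0.10, Mefv at 24.7 ± 1.3 and 0.61 ± 0.070, and Fas at 34.4 ± 1.4 and 2.37 ± 0.41. Ripk3 (0.48) and Naip6 (0.58) changed more in KO.

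Arginine, nitric oxide and polyamine genes gave 6 of 20 higher in M1 and 12 in M2, and 7 and 10 after scaling (median -0.62). Besides Nos2, Ass1, which rebuilds arginine from citrulline, was at 348, 344 and 345 in KO M1 and 5.09, 5.38 and 4.95 in KO M2, and at 331, 326 and 323 in wt M1 and 9.43, 9.64 and 10.6 in wt M2. Its M2 level in each KO library was below that in each wt library, and the change was larger in KO by 0.91 (adjusted p = 1.2e-07). Srm, spermidine synthase, was higher in M2, at 1.28 ± 0.40 in KO M1 and 29.1 ± 1.1 in KO M2.

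Glycolysis and HIF-1 response genes were all higher in M1, 26 of 26 tested with and without scaling, with a median of 2.18. Slc16a3, the lactate exporter, was at 441 ± 23 in KO M1 and 11.2 ± 0.90 in KO M2, Bnip3 at 288 ± 2.8 and 8.55 ± 1.2, Egln3 at 41.6 ± 0.96 and 0.53 ± 0.11, and Ero1l at 222 ± 4.7 and 10.0 ± 0.32. Pfkp (0.45) and Hk1 (0.29) changed more in KO. In the TCA cycle list, which holds Acod1, 2 of 24 were higher in M1 and 15 in M2, and 7 and 11 after scaling (median -0.52), where 53.8% of all tested genes were higher in M2, and 36.8% after scaling. Idh1 was at 13.0 ± 0.25 and 165 ± 2.6, Fh1, fumarase, at 6.42 ± 0.34 and 28.6 ± 1.8, and Idh2 at 5.20 ± 0.26 and 22.7 ± 1.0. No gene of that list passed for a difference in change between genotypes.

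Fatty acid oxidation genes gave 15 of 20 higher in M2 and 3 in M1, and 13 and 4 after scaling (median -0.97), where all tested genes gave 53.8% and 23.7%, and 36.8% and 37% after scaling. Fabp4, a fatty acid-binding protein, was at 28.5 ± 0.65 in KO M1 and 264 ± 2.3 in KO M2, and Lipa, the lysosomal acid lipase, at 148 ± 4.3 and 762 ± 19. Ppard was higher in M1 at 35.5 ± 0.96 and 8.85 ± 0.46. Fabp5 was at 802 ± 15 in KO M2 and 638 ± 36 in wt M2, and fell more in KO (difference -0.49, 1.8e-05). Sterol genes gave 5 of 24 higher in M1 and 15 in M2, but 8 and 7 after scaling (median -0.57), so their direction as a list depended on the scale. Dhcr7 was at 2.34, 2.29 and 1.97 in KO M1 and 26.7, 27.5 and 28.5 in KO M2, and Cyp51 at 2.41 ± 0.43 and 9.68 ± 0.21. Sqle (0.54) was lower in KO M2 than in wt M2, with means of 8.73 against 12.9.

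DNA replication and mitosis genes were higher in M2, 28 of 34 against 2 in M1, and 25 against 3 after scaling, with a median of -1.12. The replication helicase genes Mcm2, Mcm3 and Mcm6 were at 0.80 ± 0.13, 3.35 ± 0.12 and 4.67 ± 0.16 in KO M1 and at 8.74 ± 0.14, 16.7 ± 0.64 and 23.9 ± 0.24 in KO M2. Ccne1, cyclin E1, went the other way at 16.6 ± 1.4 and 2.58 ± 0.24. No replication gene passed for a difference in change between genotypes. Cyclins and inhibitors gave 6 of 15 higher in M1 and 5 in M2, and 8 and 4 after scaling (median -0.01). Cdkn1a, the inhibitor p21, was at 775, 783 and 788 in KO M1 and 41.9, 37.3 and 41.6 in KO M2, and at 686, 672 and 688 and 60.5, 62.0 and 62.4 in wt. KO was above wt in M1 and below it in M2 in all libraries (difference 0.80, 2.7e-07). Cdkn1c was higher in M2 at 3.82 ± 0.43 and 47.6 ± 1.8, and Ccnd2 and Ccnd3 higher in M1.

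Macrophage identity genes were divided between the states, 11 of 21 higher in M1 and 8 in M2, and 13 and 7 after scaling (median 0.33). Fcgr1, the receptor CD64, was higher in M1 at 393 ± 2.5 and 33.0 ± 0.88, as was the transcription factor Irf8 at 388 ± 8.5 and 76.6 ± 0.90. The transcription factor Cebpa was higher in M2, at 119 ± 0.89 against 3.82 ± 0.14. Mertk, a receptor for apoptotic cells, had a more negative change in KO than in wt (difference -0.36, 1.4e-04), and Cd14 is given above.

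Scavenger and phagocytic receptors gave 13 of 23 higher in M1 and 9 in M2, and 13 and 7 after scaling (median 0.63). Clec4e was at 627 ± 14 in KO M1 and 2.46 ± 0.095 in KO M2, Marco at 151 ± 3.1 and 0.02 ± 0.017, and Clec4n at 72.5 ± 4.9 and 0.87 ± 0.17. Axl, like Mertk a receptor for apoptotic cells, was at 42.5, 44.6 and 43.2 in KO M2 and 64.7, 64.2 and 65.2 in wt M2, with means of 67.8 and 65.4 in M1. KO M2 was below the other groups (difference 0.62, 3.0e-07). Lrp1 differed by -0.37, and its call in KO was lost on scaling.

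Prostaglandin and leukotriene enzymes gave 5 of 13 higher in M1 and 7 in M2, and 6 and 7 after scaling (median -0.93), with the cyclooxygenases on opposite sides. Ptgs2, the inducible enzyme, was at 539, 490.4 and 517 in KO M1 and 1.97, 1.76 and 2.02 in KO M2, while Ptgs1 was below 1 in M1, as given above. Ptges, which makes prostaglandin E2, was higher in M1 at 40.6 ± 0.087 and 2.06 ± 0.16, and Hpgd, which degrades it, higher in M2 at 0.05 ± 0.046 and 20.3 ± 0.97. The 4 that differed by genotype had positive differences, as did 77.7% of the 373 differing genes overall: Ptgs2 (0.50), Ptgs1, Pla2g7 (0.41, but -0.28 in the DA-treated libraries) and Alox5ap (0.35).

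Heme, iron and antioxidant genes gave 15 of 20 higher in M1 and 3 in M2, and 15 and 2 after scaling (median 1.39). Hmox1, heme oxygenase, was at 3950 ± 86 in KO M1 and 243 ± 1.2 in KO M2, Lcn2, which binds siderophores, at 201 ± 4.8 and 0.26 ± 0.035, and Sod2 at 261 ± 2.0 and 17.2 ± 0.45. Tfrc, the transferrin receptor, was higher in M2 at 3.24 ± 0.065 and 69.4 ± 1.0. Nqo1 was at 0.96 ± 0.13 in KO M2 and 2.31 ± 0.093 in wt M2 and changed more in KO (0.83). Lysosome and cathepsin genes gave 4 of 21 higher in M1 and 14 in M2, and 7 and 13 after scaling (median -0.80). Gusb and Hexa were at 96.6 ± 1.1 and 193 ± 9.1 in KO M1 and 418 ± 7.2 and 738 ± 11 in KO M2. Ctsc, cathepsin C, was higher in M1 at 588 ± 39 and 55.0 ± 3.4, and Ctsd fell more in KO (-0.30).

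Dopamine receptor and cAMP genes gave 4 of 20 tested higher in M1 and 14 in M2, but 4 and 6 after scaling (median -0.49), so most of the M2 calls rested on the scale. Adenylyl cyclase genes Adcy3 and Adcy9 kept theirs, at 0.18 ± 0.010 and 0.62 ± 0.042 in KO M1 and 7.99 ± 0.30 and 6.66 ± 0.14 in KO M2. Pde4b, a phosphodiesterase that degrades cAMP, and Nr4a3, a transcription factor induced by cAMP, were higher in M1, at 23.5 ± 0.40 and 3.42 ± 0.56 against 3.58 ± 0.34 and 0.12 ± 0.075. None of the 20 differed in change between genotypes.

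The genotypes were then compared gene by gene across the whole contrast. The fitted changes in KO and wt, which share no library, correlated at 0.988 across the 10682 genes, a description only. Both were past the threshold and higher in M1 for 2297 genes, higher in M2 for 5510 and in opposite directions for 8. A further 462 genes passed in KO alone and 471 in wt alone, but the difference itself passed for only 29 and 32 of these. The change differed between genotypes for 373 genes (3.49%), more positive in KO for 290 and more negative for 83. Without KO M2 replicate 3 the 83 became 52, and without wt M1 replicate 2 they became 55. Among the 290, 186 were higher in M1 in KO by fitted value and 104 higher in M2; among the 83, 20 and 63. In 32 of the 373 the fitted changes had opposite signs in KO and wt.

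**Figure D4:**
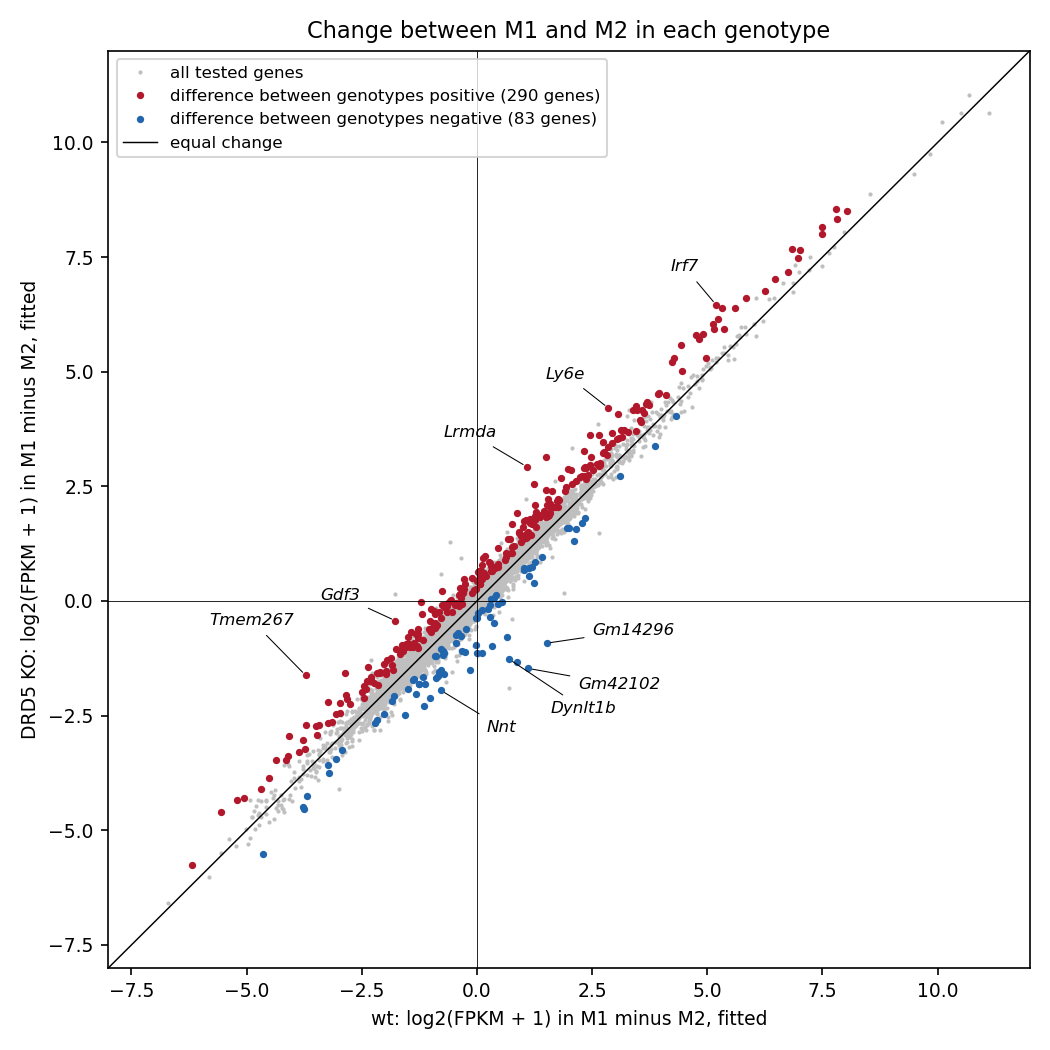
Fitted change between M1 and M2 on the log2(FPKM + 1) scale in wt (horizontal) and DRD5 KO (vertical) for 10682 genes, with genes past the threshold for a difference between genotypes in red (290, more positive in KO) and blue (83, more negative). Most genes lie along the line of equal change, and Tmem267 and Lrmda lie farthest above it among named genes.

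Differences between the genotypes lay mostly in the M2 libraries. KO against wt gave 59 genes (0.552%) in M1 and 581 (5.44%) in M2. The filter used the KO libraries alone, so genes that reached 1 FPKM only in wt were not counted. A filter on the 12 untreated libraries added 251 genes, and the counts were then 67 in M1 and 612 in M2. The count of 59 in M1 was unstable. It was 21, 4 and 2 without wt M1 replicates 1, 2 and 3, and 28, 8 and 10 without KO M1 replicates 1, 2 and 3. M2 libraries have no part in the M1 means, yet the count moved without them too. It was 35 and 30 without KO M2 replicates 1 and 3, and 81 without wt M2 replicate 3. With no intensity trend in the fit it was 3. For the 290 genes the median KO minus wt difference was 0.03 in M1 and -0.52 in M2, and for the 83 it was -0.05 and 0.49, against -0.01 and -0.03 over all tested genes. These values come from the same libraries as the test that chose the genes.

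Tmem267, a membrane protein gene of little known function, had the largest positive difference. It was at 3.21, 3.46 and 2.71 FPKM in KO M2 and 18.7, 20.9 and 19.8 in wt M2, and below 1 in all untreated M1 libraries. Lrmda, a gene of melanocyte differentiation, was at 11.2, 11.1 and 9.66 in KO M1 and 0.42, 0.64 and 0.51 in KO M2, and at 10.2, 10.4 and 10.3 and 4.28, 4.60 and 4.11 in wt. KO M2 libraries were far below wt M2 in both, with differences of 2.10 (6.7e-08) and 1.85 (3.1e-08). Ly6e, an interferon-induced surface protein, was at 50.1, 50.0 and 52.0 in KO M2 and 122, 128 and 130.0 in wt M2, and Itgb7, an integrin chain, at 1.24, 1.42 and 1.59 in KO M2 and 4.43, 4.30 and 4.16 in wt M2. Gdf3, a ligand of the TGF-beta family, was at 16.5, 18.4 and 19.4 in KO M2 and 44.9, 43.2 and 44.2 in wt M2, Mmp9, a gelatinase, at 4.14, 4.10 and 3.48 in KO M2 and 13.3, 11.6 and 11.9 in wt M2, and L1cam, an adhesion molecule, at 3.07, 2.97 and 3.23 in KO M2 and 8.22, 7.85 and 7.91 in wt M2. In each of the 5, all KO M2 libraries were below all wt M2 libraries, and the means in M1 differed little: for Mmp9 0.64 and 0.83, for L1cam 3.01 and 2.87. Their differences in change were 1.36, 1.16, 1.34, 1.28 and 1.19. L1cam did not change in KO (-0.03, adjusted p = 0.61) without scaling and had a positive change after it (0.29), and the KO call of Gdf3 (-0.43) was lost on scaling (-0.03).

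Gapdh-ps15, a pseudogene of Gapdh on the Y chromosome, was the exception among the 10, since its difference lay in M1: 112, 83.5 and 79.7 in KO M1 and 36.4, 26.6 and 28.4 in wt M1, against 8.76, 8.88 and 10.7 and 12.3, 11.9 and 6.79 in M2 (difference 1.64, 6.8e-04). Its reads may be shared with Gapdh, at 5833 in KO M1 and 5436 in wt M1. Gm16867 (1.32) was at 0.10, 0.04 and 0 in KO M2 and 1.93, 1.69 and 1.31 in wt M2.

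Among negative differences, Gm42102 led, at 6.81, 8.06 and 7.99 in KO M2 and 0, 0.26 and 1.09 in wt M2 (-2.58). Gm14296 was listed at 0 in all wt M2 libraries and at 2.79, 2.44 and 3.41 in KO M2, and the pseudogene Gm43828 was at 1.69, 1.43 and 1.82 in wt M2 and 12.1, 11.2 and 11.8 in KO M2. Wild-type M2 was lowest of the 4 groups for these 3. Dynlt1b, a dynein light chain gene with near-identical copies, was at 79.3, 88.0 and 90.1 in KO M2 and 23.1, 23.4 and 23.7 in wt M2, with 32.3, 36.9 and 36.1 and 30.1, 44.4 and 43.6 in M1. KO M2 was above all other groups, the change being -1.27 in KO and 0.70 in wt (-1.97, 1.5e-06). Camk2b, a calcium-dependent kinase, was at 2.72, 2.58 and 2.48 in KO M2 and 0.44, 0.44 and 0.63 in wt M2, and Slc15a2, a peptide transporter, at 2.32, 2.46 and 2.40 in KO M2 and 0.41, 0.77 and 0.55 in wt M2. Both were below 1 in every untreated library outside KO M2. Their differences were -1.36 and -1.23, and those of Gm41476, Gm41844 and Gm1673 were -1.44, -1.31 and -1.15. How reads shared with near-identical copies of Dynlt1b or with pseudogenes were assigned is not given in the sources used here.

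Nnt, the mitochondrial transhydrogenase, was at 15.0, 14.7 and 14.4 in KO M2 and 6.41, 6.03 and 6.71 in wt M2, with means of 3.05 and 3.31 in M1 (-1.18, 8.6e-07). Its position, chr13:119335527-119409257, is near that of Tmem267, chr13:119488086-119610459 (GRCm38.p6), and the 2 differed in opposite directions. Mgll, among the 12 largest falls, was at 34.4, 35.6 and 36.3 in wt M2, below each KO M2 value, with a difference of -0.87 (1.9e-05).

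The same difference of changes was taken from the 12 DA-treated libraries, an alternative chosen after seeing the data. There 5057 genes (47.3%) differed, 3169 positive and 1888 negative. Of the 290 genes, 179 had a positive difference and 124 passed; of the 83, 62 were negative and 52 passed; and 75 of the 373 passed in the other direction. Tmem267 (2.09), Lrmda (1.82), Ly6e (1.34), Irf7 (0.95), Oas3 (0.78), Ass1 (0.98) and Dynlt1b (-2.31) kept their sign and passed. Gbp2 (-1.06), Ccl8 (-0.70) and Ccr1 (1.45) passed with the opposite sign. All of the 6 named class II genes turned negative: Ciita (-2.10), H2-Eb1 (-0.51), Cd74 (-0.31), H2-Aa (-0.28) and H2-DMb1 (-0.28) passed so, and H2-Ab1 (-0.09) did not pass. So none of the class II differences held under DA. Of the 18 antiviral genes, 9 turned negative, of which Ifi204 (-0.89), Parp14 (-0.67), Ifit3 (-0.57), Ifit2 (-0.46) and Rtp4 (-0.29) passed and Ifit1 (-0.32), Rsad2 (-0.28), Ddx58 (-0.15) and Ifi44 (-0.04) did not. The other 9 stayed positive and passed.

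Markers of other cell types were measured beside these results. The list of stromal markers, 11 genes of fibroblasts, endothelium and epithelium, summed to 10.4, 10.9 and 11.8 FPKM in KO M1 and to 89.3, 89.4 and 91.1 in KO M2, and in wt to 10.5, 10.4 and 10.6 in M1 and 137, 135 and 137 in M2. M2 libraries were higher than M1 libraries in both genotypes, and wt M2 higher than KO M2. Decorin (Dcn) was the most abundant in M2, at 41.7, 42.8 and 43.1 in KO and 75.7, 74.0 and 75.8 in wt, and below 2 in M1, whereas the epithelial markers Epcam and Krt8 were near 0 throughout. Of 8 tested, 7 were higher in M2, 4 of them by at least 4-fold (median -1.82): Dcn (-4.30), Col1a2 (-2.98), Col1a1 (-2.44) and Col3a1 (-2.10). Col1a1 (0.53), Dcn (0.76) and Pdgfra (0.55) had positive differences between genotypes, being lower in KO M2, and Cdh5 (-0.86), a marker of endothelium, a negative one, at 1.80 ± 0.075 in KO M2 and 0.59 ± 0.096 in wt M2. The part of such cells in the M2 genes and in the differences between genotypes was not tested.

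Neutrophil markers, 11 genes, summed to 28.9, 31.4 and 30.1 in KO M1 and 59.3, 68.4 and 73.0 in wt M1, and to at most 2.10 in KO M2 and 3.43 in wt M2. The sum was highest in wt M1, with S100a8 the most abundant gene in M1 at 13.8, 17.2 and 14.8 in KO and 22.2, 26.9 and 25.9 in wt. The granule gene Ngp was at a mean of 0.10 in KO M1 and 8.50 in wt M1, Camp at 0.26 and 2.56, and Ltf at 0.03 and 2.23, while Mpo and Elane were near 0. S100a8 (3.58) and Mmp8 (2.98) were tested and higher in M1 in KO, and neither passed for a difference in change between genotypes. Each KO M1 value of S100a8 was nevertheless below each wt M1 value. Ngp, Camp and Ltf did not pass the filter, which used the KO libraries alone, and were not tested. The part of neutrophils in the M1 results was not tested.

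**Figure D5:**
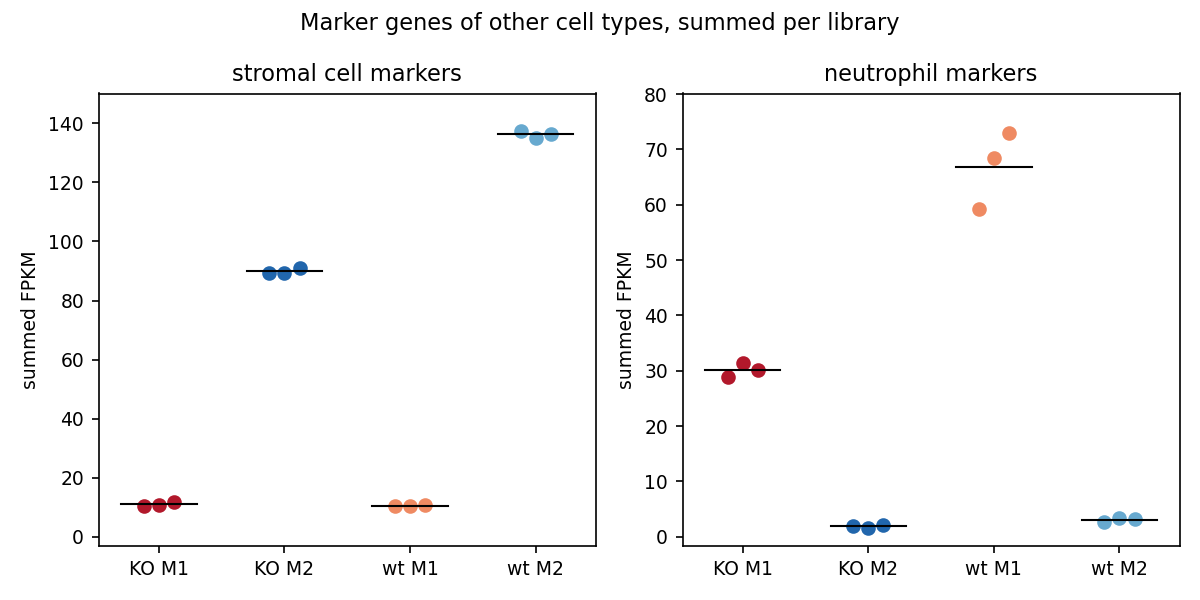
Summed FPKM of 11 stromal and 11 neutrophil marker genes in each of the 12 untreated libraries; points are libraries and lines group means. Stromal sums lie at 89.3 to 91.1 in KO M2 and 135 to 137 in wt M2, and neutrophil sums are highest in wt M1.

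B cell markers summed to at most 0.95 FPKM in any untreated library and none was tested. T and NK cell markers summed to at most 7.23, with Cd4, also a gene of some macrophages, at 6.00 ± 0.031 in KO M2 and higher there (-2.13), and Lck higher in M1, at 1.72 ± 0.33, while Cd3e, Cd3d and Cd3g were below 0.3. Dendritic cell markers summed to 42.9, 43.1 and 43.5 in KO M1 and to at most 0.75 in KO M2, nearly all from Ccr7, and Xcr1 at 1.45 ± 0.24 and Dpp4 at 1.51 ± 0.29 in KO M1 were also higher in M1, so 3 of 3 tested were. In the mast cell, basophil and eosinophil list, Kit (-1.78) and Siglecf (-0.51) were higher in M2, Siglecf not after scaling. Pf4, a chemokine of platelets that macrophages also make, was the 1 tested gene of the erythroid and megakaryocyte list and higher in M1, at 50.2, 55.5 and 51.3 in KO M1 and 3.63, 4.20 and 5.46 in KO M2 (3.31), with globin genes below 1.

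Genes listed in a single set could not enter the contrast. Of the 954 in the M1 files alone, 10 reached 1 FPKM in an untreated library, and of the 677 in the M2 files alone 3 did. All 954 held 0.0119% of the summed FPKM of the KO M1 libraries and all 677 held 0.00231% of that of the KO M2 libraries. Gbp10 was the highest, at 26.1, 25.5 and 26.8 in KO M1 and 29.6, 29.4 and 29.7 in wt M1. S100a9, the partner of S100a8, was at 0.41, 0.81 and 0.40 in KO M1 and 10.6, 13.8 and 16.4 in wt M1, well apart. Retnlg, Myl3 and Myoz2 were listed at 0 in the 3 KO M1 libraries, and Retnlg, a neutrophil gene, was at 0.88, 1.13 and 1.21 in wt M1. Chil4, the chitinase-like protein Ym2, was the highest M2 gene of the kind in wt, at 2.34, 2.54 and 2.23 in KO M2 and 5.93, 5.28 and 7.14 in wt M2, lower in each KO library.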

How the data were processed

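The deposited tables give FPKM per gene for 24 libraries, in separate sets of files for M1 and M2; the 12 untreated libraries in 4 groups of 3 were used, and the 12 DA-treated libraries only where stated. Per the submitters' processing notes the authors aligned reads with Bowtie2 2.2.5 to GRCm38.p6, while the methods of the study name HISAT2, GRCm38.p5 and BGISEQ-500 sequencing; annotation and counting tool are not given in the sources used here. Depth is unknown. Genes were joined by gene identifier. Genes that reached 1 FPKM in 3 or more untreated KO libraries, 10682 in all, entered a limma fit with intensity trend on log2(FPKM + 1) over 4 group means. Contrasts were M1 minus M2 in KO and in wt, their difference, and KO minus wt within M1 and within M2; the DA-treated KO libraries were fitted alone. P-values were adjusted by Benjamini-Hochberg over all tested genes, with thresholds of 0.001 and 1.2-fold. Alternatives were a pseudocount of 0.1, other filters, median-of-ratios and quantile scaling, a replicate block, other sets of libraries in the fit, no trend, other thresholds, genes of one set added at 0 and leaving out each library. R 4.3.3, limma 3.58.1, Python 3.11.15, numpy 2.4.6, pandas 2.3.3 and matplotlib 3.10.9 were used.

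Members and lists were chosen with earlier results of these data known. Named genes are 4 markers and Drd5, the 12 largest rises and 12 largest falls in KO among genes past the threshold in the same direction in both genotypes, the 10 largest positive and 10 largest negative differences between genotypes, and, per list, the 4 members with the largest absolute change in KO and any member whose difference between genotypes passed. Members at 0 or under the filter could be named as such, and single exceptions in a list were named after their values were seen. A few genes and 1 motif are not reported here, though list counts include those genes.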

Additional observations from a re-analysis of the deposited data

Results flagged for a closer look

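The results here differ between the genotypes in their change from M2 to M1, by limma with an adjusted p under 0.001 and at least 1.2-fold. They were 290 genes with a more positive and 83 with a more negative change in KO than in wt. By gene, the difference on the log2(FPKM + 1) scale was 2.10 for Tmem267, 1.85 for Lrmda, 1.64 for Gapdh-ps15, 1.36 for Ly6e, 1.34 for Gdf3, 1.32 for Gm16867, 1.28 for Mmp9, 1.27 for Irf7, 1.19 for L1cam and 1.16 for Itgb7. It was -2.58 for Gm42102, -2.42 for Gm14296, -2.21 for Gm43828, -1.97 for Dynlt1b, -1.44 for Gm41476, -1.36 for Camk2b, -1.31 for Gm41844, -1.23 for Slc15a2, -1.18 for Nnt and -1.15 for Gm1673. Replicates are of unstated kind, and no cause of any of these differences was tested.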

How the results depend on the processing

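Median-of-ratios scaling gave 3954 genes higher in M1 in KO and 3916 in wt. At 2-fold, 1196 were higher in M1 and 2495 in M2 in KO, 1154 and 2537 in wt, and 1137 and 2502 in the DA-treated KO libraries, and at 4-fold, chosen after seeing the data, 508 and 533 in KO, 696 and 324 with median-of-ratios scaling, and 471 and 553 in wt. These follow from the change in scale or threshold. The difference between genotypes gave 714 positive and 265 negative genes at an adjusted p of 0.05, 19 and 12 at 2-fold, 1 and 3 at 4-fold, chosen after seeing the data, and 3169 and 1888 in the DA-treated libraries, also chosen after seeing the data. KO against wt within M1 gave 26 genes with no filter, 37 with quantile scaling, 107 with all 24 libraries, 3 with no trend, 199 at 0.05 and 2 at 2-fold, and within M2 36 at 2-fold. The causes of moves under other scales, filters, trend and libraries were not tested.

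Leaving out each library gave 2485 to 2538 higher in M1 and 5650 to 5746 in M2 in KO, 2388 to 2436 and 5741 to 5863 in wt, 198 to 276 positive and 52 to 70 negative differences, 2 to 81 genes for KO against wt within M1 and 466 to 557 within M2. The negative count was 52 without KO M2 replicate 3 and 55 without wt M1 replicate 2. Within M1 the count was 28, 8 and 10 without KO M1 replicates 1, 2 and 3, 21, 4 and 2 without wt M1 replicates 1, 2 and 3, and 35 and 30 without KO M2 replicates 1 and 3.

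With a replicate block, 2536 were higher in M1 and 5738 in M2 in KO, 2437 and 5838 in wt, with 250 positive and 67 negative differences, 41 genes within M1 and 525 within M2. Deviations of libraries of the same number correlated at 0.00433 on average, and not every library correlated best with its own number, so the number was not used as a pair.

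Of 197 named changes in KO, 186 kept direction and side of the threshold in every setting but 2-fold. Changes of opposite sign were L1cam at 0.29, Cd74 at 0.15, H2-Eb1 at 0.41, Sqle at 0.28 and Lrp1 at 0.06 under median-of-ratios scaling and L1cam at 0.37 under quantile scaling, where the scale itself moves all genes. Of 96 named differences, 38 did so, and 34 had the opposite sign, all in the DA-treated libraries: Gbp2 -1.06, Rsad2 -0.28, Gm14296 0.04, Ccl3 0.55, Ccl4 0.91, Ccl22 -0.58, Ccl8 -0.70, Ccr1 1.45, Olfm1 -0.50, Il2rg -0.10, Stat2 -0.12, Gbp6 -0.56, Irgm1 -0.68, Ifi47 -0.56, Ifit2 -0.46, Ifit1 -0.32, Ifit3 -0.57, Ifi44 -0.04, Rtp4 -0.29, Ddx58 -0.15, Ifi204 -0.89, Parp14 -0.67, H2-K1 -0.16, Ciita -2.10, Cd74 -0.31, H2-Aa -0.28, H2-Ab1 -0.09, H2-Eb1 -0.51, H2-DMb1 -0.28, Traf1 -0.51, Cd14 -1.14, Pla2g7 -0.28, Dcn -0.23, Pdgfra -0.52. The cause was not tested. Leaving out 1 library ended 10 to 19 of the 96 calls, no filter 21, no trend 22 and median-of-ratios scaling 7. Depth is unknown, so its limits could not be given.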
